A study of Rattus norvegicus with 21 samples.

Results

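Described here are 5814 CpG cytosines of the rat dorsal striatum that were read far more often than the rest of the genome. They were chosen by coverage alone: a cytosine on a numbered chromosome or an unplaced contig, listed in all 21 bisulfite libraries, with a median of 500 reads or more over the 6 unlesioned libraries. They are 0.615% of the 945988 cytosines that were listed in all 21 libraries outside chromosome X and the mitochondrial genome. Joining cytosines within 1000 bases of each other gave 2166 loci. The comparators were 437857 cytosines with a median of 30 to 100 reads in the same 6 libraries.

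Methylation of the cytosine in a CpG is copied to the new strand when DNA is replicated, and in most mammalian cells CpG-dense promoters lack it while repeats and gene bodies carry it. Sequence that exists in many copies, such as the ribosomal RNA gene arrays, satellites and transposable elements, is often represented by fewer copies in a genome assembly, and reads of all copies then fall on those few. A methylation level measured there is a mean over many copies. The striatum is the input area of the basal ganglia, and it receives the dopamine fibres that are lost in Parkinson's disease.

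All animals were wild-type Sprague Dawley rats of 120 days. The 7 L-DOPA samples and the 8 lesioned saline samples came from animals with a 6-hydroxydopamine lesion of the left medial forebrain bundle, a toxin that destroys dopamine fibres, followed by 3 weeks of recovery. The L-DOPA animals then received 6 mg/kg of the dopamine precursor daily for 7 days, a regimen used to bring about dyskinesia, and striatum was collected 3 h later than the final dose. The 6 unlesioned saline samples carry no further description, so it is not known whether they are separate animals or the other side of lesioned ones. The tissue is bulk, so every level is a mean over its cell types, a change in the share of a cell type cannot be told apart from a change within cells, and no marker of a cell type was measured. Bisulfite sequencing reads all modified forms of cytosine that stay unconverted as methylated. The labels do not say that libraries of a group came from separate animals, so p-values measure only the spread between these libraries. Positions are given on the rn5 assembly, and no gene annotation or sequence of rn5 was used here.

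Total coverage was 59551356 to 164225577 reads per library, summed over cytosines. In 3 libraries (L-DOPA replicates 3 and 7, unlesioned replicate 1) reads were concentrated in CpG-dense sequence: their ratio of reads in tiles of many CpGs to reads in tiles of few was 25.4 to 28.0, against 12.5 to 20.7 in the other 18 libraries. Library numbers formed 2 series, one of 9 libraries without any unlesioned one, and one of 12. Libraries were also compared over 3396 cytosines outside the excess-coverage set that varied widely (SD over 20 points across the 21 libraries). Of the 210 pairs of libraries, 5 pairs of a lesioned saline and an unlesioned library were each other's closest match and had the 5 highest correlations, 0.281 to 0.408, against at most 0.275 in the other 205 pairs. They are lesioned replicates 8, 2, 7, 5 and 3 with unlesioned replicates 6, 1, 5, 3 and 2, in that order, and 3 of the 5 pairs joined libraries of different series. The next highest correlations joined the 3 libraries with concentrated reads. L-DOPA replicates 3 and 7 had 0.275 and were also each other's closest match, and L-DOPA replicate 3 had 0.266 with unlesioned replicate 1. That unlesioned library is also in 1 of the 5 pairs. Whether any of the 5 pairs comes from 1 animal is not given by the labels and was not tested. The tests with unlesioned samples treat all libraries as independent.

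The excess coverage had a short reach at most loci and an extreme one at a few. Of the 2166 loci, 878 held 1 cytosine, 608 held 2, 331 held 3 and 40 held 10 or more. The span was 50 bases or fewer, the length of 1 read, at 2055 loci (94.9%), and 2108 loci had cytosines of 1 strand only. Span and strand were not measured for the comparators, so neither is shown to be particular to this set. Both strands were listed for 129183 CpGs, against 960019 cytosines found in every library, all chromosomes included. In the set this held for 201 CpGs, against 5814 cytosines, with the coverage threshold applied to each strand. Other cytosines within 1000 bases had a median coverage of 90.9 reads over the 1826 loci that had any, against a median of 95 reads over all 945988 cytosines. Every numbered chromosome, 20 in all, held 50 to 254 loci, and 7 loci with 45 cytosines lay on unplaced contigs. The label given to these cytosines says multi-copy sequence. Copy number was not measured and no genome sequence of this build was used, so the label could not be checked, and the set is called excess-coverage cytosines here.

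The coverage itself, which chose the members, fell off into a long tail with a shallow second rise. The 5814 cytosines comprised 4478 of 500 to under 1000 reads, 878 of 1000 to under 5000 reads and 458 of 5000 reads or more, up to 40118 reads. Between 3000 and 4500 reads there were 58 cytosines, while 480 had 4500 reads or more. At the threshold nothing changed abruptly: 155 cytosines of 500 to under 505 reads had a mean methylation of 35.3%, and 154 cytosines of 495 to under 500 reads, just outside, had 32.6%. Of the 5814 cytosines, 3928 had a median of 500 reads or more in the L-DOPA group and 2785 in the lesioned saline group. The rule chose cytosines high in the unlesioned libraries, so lower numbers in the other groups are no result about lesion or drug. Libraries differed in depth, and their median coverage at the comparators was 51 to 68 reads in the L-DOPA group, 29 to 58 in the lesioned saline group and 37 to 75 in the unlesioned group. Relative coverage, a cytosine's coverage divided by the library's median over the comparators, reached 5 or more as a group median at 5805 cytosines in the L-DOPA group, 5813 in the lesioned saline group and all 5814 in the unlesioned group.

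**Figure D1:**
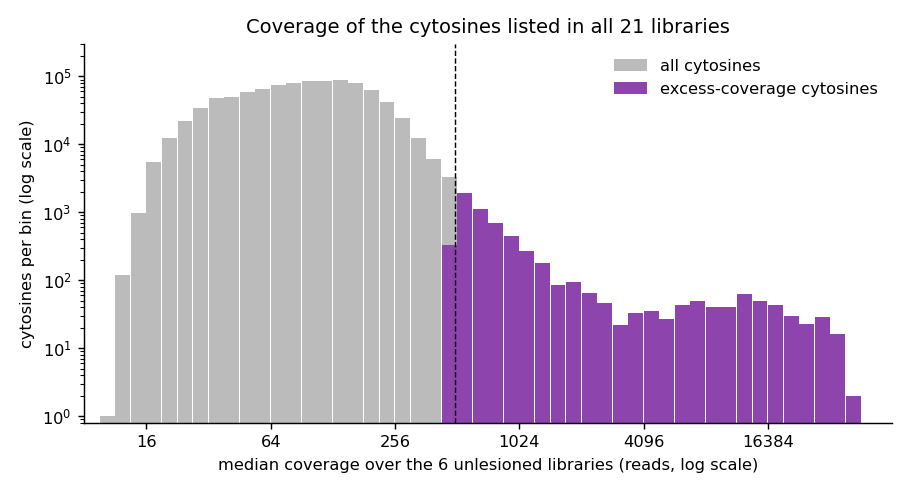
Number of cytosines (log scale) by median coverage over the 6 unlesioned libraries (log scale), for all 945988 cytosines in grey and the 5814 excess-coverage cytosines in purple; the dashed line is the threshold of 500 reads. The purple cytosines thin out to few per bin and rise again to a shallow second peak, with no empty bin between. Above 4500 reads there are 480 cytosines.

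Against the comparators, excess-coverage cytosines were lower in methylation when cytosines were averaged. Their mean methylation in unlesioned striatum was 31.1% ± 1.83 (SD, n = 6 libraries), against 36.0% ± 1.71 at the comparators. The difference fell in the same direction in all 21 libraries, and averaged -4.27 points in the L-DOPA group, -4.81 in the lesioned saline group and -4.90 in the unlesioned group. Its sign depends on the definition. Averaged over loci, so that each locus counts once, the difference in the unlesioned group was 6.15 points, and with comparators of 20 to 200 reads it was 1.43 points, both in the other direction. No test was made, since the cytosines share loci and libraries.

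Within the set, mean methylation was lower in the deeper ranges of coverage, and the medians did not follow that order. The mean in unlesioned striatum was 33.4% ± 1.32 at 500 to under 1000 reads, 28.3% ± 2.74 at 1000 to under 5000 reads and 14.7% ± 6.70 at 5000 reads or more (SD, n = 6). The median cytosine had 7.92%, 7.44% and 12.6% in the same ranges. Cytosines of over 100 to under 500 reads, outside the set, averaged 18.9% ± 0.759, less than those of 500 to under 1000 reads. Of the 458 cytosines of the deepest range, 83.8% were under 20% methylated but 2.84% were under 1%, while 24.3% of the comparators were under 1%. The deepest cytosines were thus mostly low, and a smaller share of them than of the comparators lay under 1%. Only 209 of the 458 lay outside the largest locus of the set, so these shares largely describe 1 locus. Counted by locus, 8 of the 24 loci with a peak of 5000 reads or more were over 80% methylated. CpG density differs between these sets, so the comparison was repeated within density classes of tiles of 250 bases. In tiles of 15 or more listed CpGs, where 80.1% of the deepest cytosines lay, the mean was 12.3% ± 7.05 for them, 8.16% ± 3.00 for all excess-coverage cytosines and 3.21% ± 0.184 for the comparators. In tiles of 4 to 7 CpGs all excess-coverage cytosines had 39.4% ± 1.48, against 52.6% ± 2.44 at the comparators. The direction of the difference thus turned between CpG-poor and CpG-dense tiles.

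**Figure D2:**
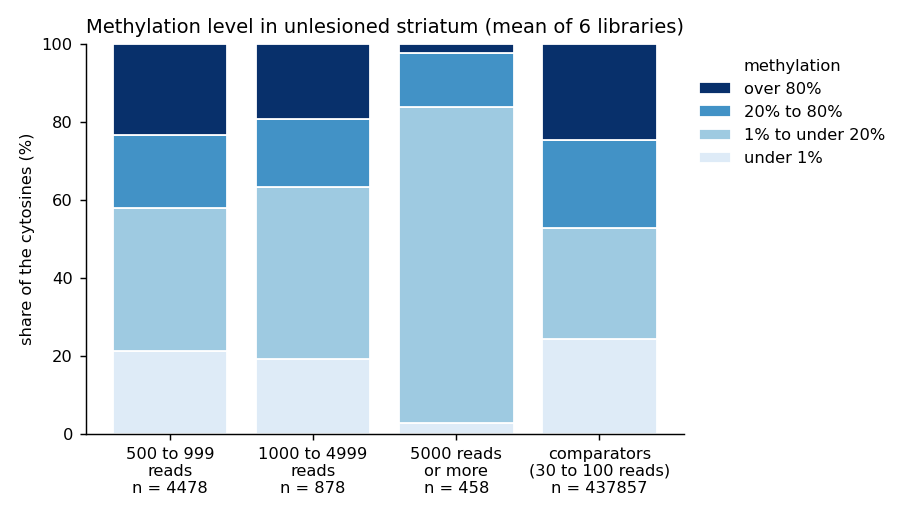
Share of cytosines (percent, stacked to 100) in 4 classes of methylation in unlesioned striatum, the mean of 6 libraries, for the 3 ranges of coverage and for the comparators. The class from 1% to under 20% fills most of the column of 5000 reads or more, in which 83.8% lie under 20% and 2.84% under 1%.

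At 500 to under 1000 reads, libraries differed less than at the comparators, and at the deepest cytosines of 5% to 20% methylation they differed more. Among cytosines of 20% to 80% methylation, the median SD between the 6 unlesioned libraries was 5.93 points at 500 to under 1000 reads and 11.8 points at 5000 reads or more, against 11.5 points at the comparators. Among those of 5% to 20% it was 2.05 points at 500 to under 1000 reads, 3.71 points at 1000 to under 5000 reads and 7.59 points at 5000 reads or more, where counting error alone would give 0.282 points. The same class had a median SD of 5.97 points at the comparators, of which counting would give 3.89. The dispersion of the counts, where 1 means counting error alone, had a median of 420 at the deepest cytosines, 3.74 at all tested excess-coverage cytosines and 2.27 over all 632335 tested cytosines. Both strands of 201 CpGs were in the set, and their levels differed by a median of 2.71 points.

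The deepest cytosines lay in 24 loci with a peak of 5000 reads or more. These held 693 of the 5814 cytosines and 65.6% of the coverage summed over excess-coverage cytosines in the unlesioned libraries. A read counts in such a sum once for each cytosine that it covers. By mean methylation in unlesioned striatum, 13 of the 24 were under 20%, 3 were from 20% to 80% and 8 were over 80%. The 8 highly methylated ones were small, with 14 cytosines in all and at most 5 each. They varied little between libraries, with SDs over the 21 libraries of 0.0353 to 0.933 points.

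A single region of chromosome 1 held 50.2% of the coverage summed over excess-coverage cytosines in the unlesioned libraries. The region held 4.91% of the coverage summed over all 945988 cytosines in the same libraries. Its 4 loci with 489 cytosines spanned 13571 bases, chr1:13497176-13510746. The largest locus of the set, chr1:13502651-13505198, had 355 cytosines, 185 on one strand and 170 on the other. Its coverage peaked at 40118 reads. The levels of its cytosines in unlesioned striatum had a median of 13.9% and ran from 2.01% to 85.9%: 24 were under 5%, 260 from 5% to 20%, 65 over 20% to 50% and 6 over 50%. Levels were uneven along the region. Upstream of that locus, the 26 cytosines at chr1:13497176-13497230 had a mean of 34.3%, and the 24 cytosines at chr1:13499507-13500366 had a mean of 4.34% ± 2.61. Downstream, the 84 cytosines of chr1:13508763-13510746 had 17.1% ± 8.49 (SD, n = 6).

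**Figure D3:**
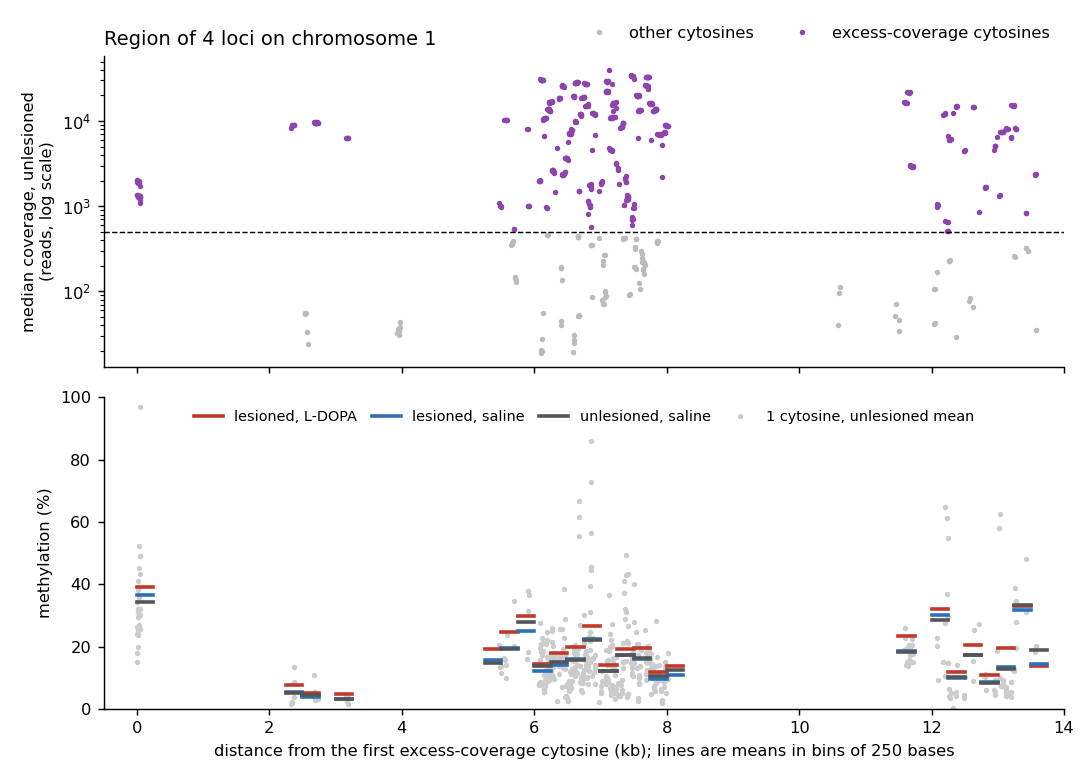
Upper panel, median coverage of each cytosine in the unlesioned libraries (log scale) along the chromosome 1 region; the dashed line is 500 reads. Lower panel, methylation of the excess-coverage cytosines, with a grey point per cytosine (unlesioned mean) and lines for the means of the 3 groups in bins of 250 bases. Group means per bin run from 3.13% to 7.58% in the second locus and from 34.3% to 39.2% in the first.

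The other loci of highest peak coverage were scattered over the genome. On chromosome 6, 4 loci with 87 cytosines lay within 9510 bases, chr6:39262083-39271592, and held 5.94% of the coverage summed over excess-coverage cytosines. The deepest of them, chr6:39264618-39264825, had 21 cytosines, a peak of 34977 reads and a mean of 17.04% ± 9.46 in unlesioned striatum. A further chromosome 6 locus, chr6:38853028-38853554, peaked at 22685 reads with 22.5% ± 11.05. The locus chr19:67048278-67048642 peaked at 18364 reads with 19.4% ± 4.27, and chr5:95173756-95173801 at 17830.5 reads with 10.03% ± 6.79. Methylated loci were among the deepest as well. The single cytosine chr13:116128969 had a median of 39019 reads and 91.4% ± 1.38, and chr16:54129843-54130312 peaked at 16225 reads with 86.3% ± 1.24 (SD, n = 6 in each case).

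Loci named for other properties show the range of the set. Among loci of 3 or more cytosines the most methylated was chr14:51247267-51247312, with 4 cytosines, at 100% in the median library of the lesioned saline group and of the unlesioned group and 99.98% in that of the L-DOPA group, and the groups overlapped. The least methylated was chr1:268542743-268542766, with 3 cytosines and means of 0.830% ± 0.768 in the L-DOPA group, 0.523% ± 0.497 in the lesioned saline group and 0.554% ± 0.579 in the unlesioned group. Large loci were also found at both ends of the scale. The 45 cytosines of chr2:211291983-211293154 averaged 93.7% ± 0.558, 94.0% ± 0.219 and 93.8% ± 0.857 in the L-DOPA, lesioned saline and unlesioned groups. The 40 cytosines of chr9:1391797-1392451 averaged 2.36% ± 0.326, 2.41% ± 0.313 and 2.29% ± 0.165 in the same order. At both of these loci the groups overlapped. Again among loci of 3 or more cytosines, chr2:18085737-18085773, with 3 cytosines, was 1 of the 3 with the largest SD between unlesioned libraries. Its lowest, median and highest libraries were 9.48%, 19.4% and 29.3% in the L-DOPA group. They were 16.8%, 23.7% and 35.3% in the lesioned saline group and 17.6%, 26.7% and 61.1% in the unlesioned group.

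Near 50%, the mean hid libraries that stood apart. The 4 cytosines of chr8:64557408-64557450 had 14.9%, 20.6% and 24.9% in the 3 libraries with concentrated reads, against 36.9% to 61.9% in the other 18. At chr13:94501249-94501280 the same 3 libraries had 17.8% to 23.7%, and the other 18 had 34.6% to 61.6%. The part of read concentration in this difference was not tested. Another locus near 50%, with 3 cytosines on an unplaced contig, had a lowest, median and highest library of 45.5%, 50.7% and 55.0% in the L-DOPA group, 46.8%, 47.5% and 56.8% in the lesioned saline group and 45.9%, 49.5% and 58.5% in the unlesioned group, and the groups overlapped. Its 3 cytosines ran from 10.99% to 86.1%, so the level near 50% was that of no single cytosine.

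Among the 21 libraries, the largest locus had levels from 6.10% to 27.0%, and other loci followed it. Its methylation was lowest in unlesioned replicate 1 and highest in unlesioned replicate 6. At chr6:39264618-39264825 the correlation with it over the 21 libraries was Pearson's r 0.995 and Spearman's rho 0.997, and r was 0.995 without the 2 libraries farthest from the median. At chr17:55223458-55223492, with 6 cytosines, r was 0.983 and rho 0.966. Of the 2165 other loci, 10 had r over 0.8, on chromosomes 1, 5, 6, 14 and 17, and the median r over all of them was 0.198. Seen by cytosine, r over 0.8 occurred at 202 of 5455 excess-coverage cytosines outside the locus (3.70%), against 0.0283% of all 942908 cytosines outside it and 10 of 435980 comparators. The shares are not at like depth, and counting error limits r at shallow cytosines. At 5% to 20% methylation it alone gives an SD of 3.89 points at the comparators, against 0.282 at 5000 reads or more. Cytosines of 1 locus are not independent either. These are descriptions over libraries that share depth and series, found after the values were seen.

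The relation held inside groups and inside series for the closest loci. At chr6:39264618 r was 0.997 in the L-DOPA group, 0.997 in the lesioned saline group and 0.998 in the unlesioned group, and it was 0.992 in series 1 and 0.996 in series 2. At the weakest of the 10, chr6:39262083-39262129, r was 0.727, 0.934 and 0.984 in the same groups, and 0.682 in series 1. Of the 209 cytosines of 5000 reads or more outside the largest locus, 107 (51.2%) had r over 0.8, but they sit in few loci. Of the 24 loci with a peak of 5000 reads or more, 7 besides the largest itself had r over 0.8. Not all deep loci did. The locus chr19:67048278 had r 0.183, with a span of levels of 11.8% to 22.9% in unlesioned libraries, and chr16:54129843 had r 0.335. In the chromosome 1 region itself, chr1:13499507-13500366 had r 0.586. Library properties were set beside the largest locus as well. Over the 21 libraries r was 0.516 with the mean methylation of the comparators, -0.345 with the read ratio, 0.483 with its own relative coverage and 0.227 with total coverage. With the comparators' mean r was 0.895 in the L-DOPA group, 0.362 in the lesioned saline group and 0.601 in the unlesioned group. With the read ratio it was -0.823, -0.0182 and -0.220 in the same order. The part of these properties in the shared variation was not tested.

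**Figure D4:**
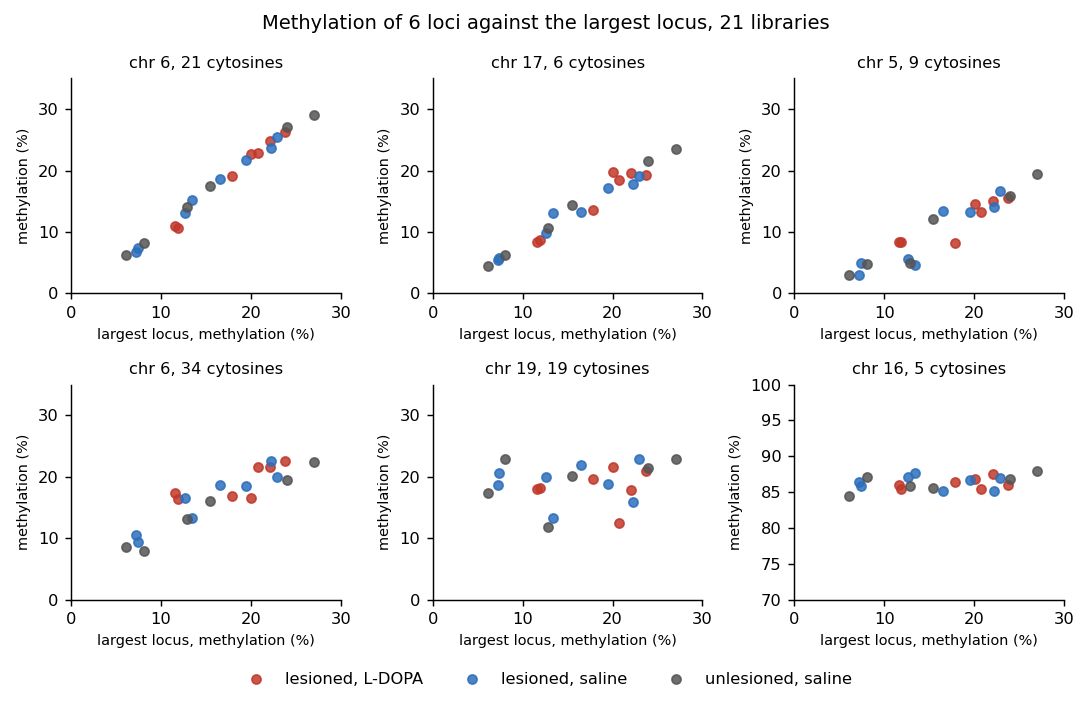
Methylation (percent) of 6 loci among those of highest peak coverage against that of the largest locus, 1 point per library, 21 libraries in 3 groups. Points of all groups lie along 1 line on chromosome 6 (21 cytosines, r 0.995) and chromosome 17 (r 0.983), and show no line on chromosome 19 (r 0.183); the vertical axis of the chromosome 16 panel runs from 70% to 100%.

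At several loci the libraries were split at the widest gaps between neighbours in order of size. The split was into 3 levels at chr13:116128969 and 2 at each of the other loci here. The number of levels was fixed rather than estimated, so the split alone does not show that separate levels exist. The relative coverage of chr13:116128969 was 74.6 and 79.1 in 2 libraries, 357.2 to 434.3 in 6 and 658.2 to 1071 in 13. The 2 lowest libraries, lesioned saline replicate 8 and unlesioned replicate 6, also had the highest methylation there, 93.5% and 94.1%, against 90.2% to 91.5% in the other 19. Among loci of 3 or more cytosines, chr12:48839949-48839986 had the largest SD between unlesioned libraries. There 10 libraries had 0.497% to 1.94% and the other 11 had 21.5% to 46.7%. The higher level held 4 of 7 L-DOPA, 4 of 8 lesioned saline and 3 of 6 unlesioned libraries. At chr13:94070977-94071528, with 63 cytosines, 11 libraries had 2.87% to 3.91% and the other 10 had 7.86% to 14.003%. The higher level held 4, 4 and 2 libraries of the L-DOPA, lesioned saline and unlesioned groups. The coverage of chr14:46826893-46826941 was split as well, at 3.35 and 3.26 times that of the comparators in lesioned saline replicate 7 and unlesioned replicate 5, and 14.2 to 51.7 times in the other 19 libraries.

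The 5 pairs of most alike libraries, which were found at other cytosines, fell on the same level at these 4 loci. At chr12:48839949 the values of lesioned and unlesioned partners differed by 0.557 to 5.21 points, with a median of 1.64, against a median of 21.7 points over the other 43 combinations of a lesioned saline and an unlesioned library. At chr13:94070977 the median difference was 0.253 points within the pairs and 6.84 points in the other combinations. The largest locus showed it too. Lesioned replicate 8 had 22.9% and its partner 27.0%, replicate 5 had 19.5% and its partner 23.98%, and replicate 3 had 16.5% and its partner 15.5%. Lesioned replicate 7 had 7.38% and its partner 8.05%, and replicate 2 had 7.24% and its partner 6.10%. The median difference there was 1.13 points within pairs and 7.55 points in the other combinations. Relative coverage of the largest locus was lower in the lesioned partner of each of the 5 pairs, at 160.6 to 234.7 in the lesioned and 173.9 to 260.6 in the unlesioned libraries. The unlesioned libraries chose the cytosines by coverage, so this is a description.

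**Figure D5:**
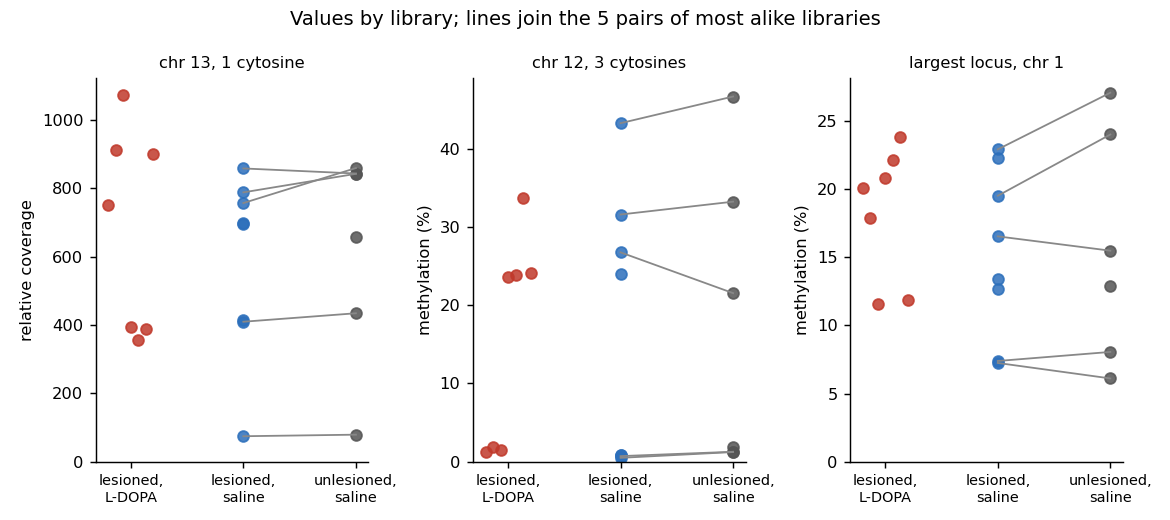
Relative coverage of the single cytosine chr13:116128969, and methylation (percent) of the chromosome 12 locus and of the largest locus, 1 point per library in the L-DOPA, lesioned saline and unlesioned groups. Lines join the 5 pairs of most alike libraries, which lie on the same level in the chromosome 13 and chromosome 12 panels, while the 3 groups overlap in every panel.

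L-DOPA against saline after the lesion asks what the drug adds in lesioned striatum. No excess-coverage cytosine passed the test, which was adjusted over 632335 cytosines. The levels of excess-coverage cytosines averaged 31.0% ± 1.70 in the L-DOPA group (n = 7) and 31.0% ± 1.03 in the lesioned saline group (n = 8). The deepest cytosines were mostly higher with L-DOPA, by less than the spread between libraries. Those of 5000 reads or more averaged 17.1% ± 4.06 in the L-DOPA group, with a lowest, median and highest library of 11.6%, 18.7% and 21.7%, against 14.2% ± 4.81 in the lesioned saline group, with 7.92%, 14.1% and 20.2%. The groups overlapped over most of their range.

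Of the 5814 cytosines, 4628 had pooled methylation of 1% to 99% and were tested, 1148 lay under 1% and 38 over 99%. With a quasi-binomial model and Benjamini-Hochberg adjustment over 632335 cytosines, 0 of 4628 passed an adjusted p of 0.05, where the share of all tested cytosines that passed was 0%. At an unadjusted p under 0.05 there were 296 (6.40%), 166 higher and 130 lower, against 4.71% of all tested cytosines, 2.02% higher and 2.69% lower. With limma on log2 odds 0 passed, and 45 (0.972%) had an unadjusted p under 0.05, against 4.83% of all tested. Without overdispersion, at an adjusted p under 0.01 and 5 points, 230 (4.97%) passed, against 1.52% of all tested. With each cytosine's own dispersion 175 (3.78%) had an unadjusted p under 0.05, against 4.96% of all tested. At that unadjusted threshold the share was thus above that of all tested with the moderated model, and below it with limma and own dispersions.

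The median difference was -0.0443 points over the 4628 cytosines (2229 higher, 2399 lower) and -0.254 points over all tested. At 441 tested cytosines of 5000 reads or more it was 2.74 points, 417 of them higher, with a median standard error of 2.74 points. Since these sit in few loci that rise and fall together, their number is no count of independent observations. Over all 458 such cytosines the median difference was 2.69 points, 1.03 within series 1, 3.73 within series 2, and 5.22 without the 3 libraries with concentrated reads. At the largest locus the lowest, median and highest libraries were 11.6%, 20.1% and 23.8% in the L-DOPA group and 7.24%, 14.96% and 22.9% in the lesioned saline group. The smallest adjusted p among its 355 cytosines was 0.994 with the quasi-binomial model.

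Of the 5 cytosines of smallest p in the higher direction, 4 lay in chr1:13499507-13500366, in the chromosome 1 region. The model drew dispersions toward a common value of 2.30, while the deepest cytosines had a median of 420. Their p-values can therefore be too small, so the place of these cytosines among the smallest p is no evidence of a difference. At chr1:13500352 the methylation had a lowest, median and highest library of 3.25%, 4.11% and 10.5% in the L-DOPA group and 0.857%, 2.74% and 6.92% in the lesioned saline group, a difference of 2.44 ± 1.33 points (SE; quasi-binomial adjusted p = 0.994). The groups overlapped there. In the lower direction the cytosine chr15:50189824 had a mean of 44.1% ± 10.3 in the L-DOPA group and 56.8% ± 4.22 in the lesioned saline group, a difference of -12.6 ± 4.17 points (SE; quasi-binomial adjusted p = 0.994). Without the 3 libraries with concentrated reads, 2 cytosines of the same chromosome 1 locus passed, where 0.000474% of all tested cytosines passed (3 of 632335): chr1:13499553 differed by 7.52 points with an adjusted p of 0.0199, and chr1:13499544 by 7.40 points with an adjusted p of 0.0264, by the quasi-binomial model. With the read ratio as a term chr15:50189824 passed, with an adjusted p of 0.0111 by the same model, where 0.000949% of all tested cytosines passed (6 of 632335).

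The lesion, compared in saline-treated animals, gave no cytosine that passed by a model without pairs. The 5 pairs of alike libraries are not in the labels, and no model with them was fitted. Levels averaged 31.0% ± 1.03 in the lesioned saline group (n = 8) and 31.1% ± 1.83 in the unlesioned group (n = 6). Of the 4628 tested, 0 passed with the quasi-binomial model, where 0% of all tested cytosines passed, and 0 passed with limma. At an unadjusted p under 0.05 there were 166 (3.59%), 57 higher and 109 lower, against 3.92% of all tested, 1.63% higher and 2.29% lower. With limma there were 37 (0.799%), against 4.08% of all tested, and with each cytosine's own dispersion 127 (2.74%), against 4.17%. Without overdispersion, at an adjusted p under 0.01 and 5 points, 68 (1.47%) passed, against 1.01% of all tested. The median difference was -0.0988 points over the 4628 and -0.379 points over the 441 deepest. Over all 458 deepest cytosines it was -0.323 points (154 higher, 304 lower), -0.545 points within series 2, which holds 2 of the lesioned saline libraries, and -1.74 points (26 higher, 432 lower) without the 3 libraries with concentrated reads. At the largest locus the lesioned saline group averaged 15.2% ± 6.13 and the unlesioned group 15.6% ± 8.44, and the libraries of the lesioned group lay within the range of the unlesioned group. How many of all tested cytosines had groups without overlap was not counted. Among the named cytosines, which were chosen for small p, only chr17:5991227, of a locus of 5 cytosines, had such groups. Its methylation had a lowest, median and highest library of 2.04%, 2.92% and 3.45% in the lesioned saline group and 3.79%, 4.60% and 5.56% in the unlesioned group, a difference of -1.88 ± 0.357 points that did not pass (SE; quasi-binomial adjusted p = 1).

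L-DOPA after the lesion compared with unlesioned striatum combines both factors. Levels averaged 31.0% ± 1.70 in the L-DOPA group and 31.1% ± 1.83 in the unlesioned group. With the quasi-binomial model 0 of 4628 excess-coverage cytosines passed, where 0.000949% of all tested cytosines passed (6 of 632335), while limma passed 0 of 4628, against 0.000316% of all tested, and own dispersions 0, against 0.000158%. At an unadjusted p under 0.05 there were 408 (8.82%), 128 higher and 280 lower, against 6.64% of all tested, 2.2% higher and 4.44% lower. With limma there were 78 (1.69%), against 5.43% of all tested, and with each cytosine's own dispersion 256, or 5.53%, against 6.46%. Without overdispersion, at an adjusted p under 0.01 and 5 points, 298 (6.44%) passed, against 3.66% of all tested. The median difference was -0.113 points over the 4628 and 1.95 points over the 441 deepest, of which 399 were higher. Over all 458 deepest it was 1.86 points, 3.08 within series 2, which holds all unlesioned libraries, and 2.80 without the 3 libraries with concentrated reads.

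The cytosines of smallest p included loci that followed the largest locus. At chr1:13497219, in the first locus of the chromosome 1 region, the lowest, median and highest libraries were 36.2%, 47.3% and 53.5% in the L-DOPA group and 18.1%, 33.9% and 40.7% in the unlesioned group. The difference was 15.3 ± 3.81 points (SE; quasi-binomial adjusted p = 0.407), and the groups overlapped. At chr1:13504030, in the largest locus, they were 52.7%, 61.1% and 67.0% in the L-DOPA group and 26.7%, 43.3% and 66.1% in the unlesioned group, a difference of 15.8 ± 5.55 points (SE; quasi-binomial adjusted p = 0.553). Without unlesioned replicate 2 this cytosine passed, with 20.1 points and an adjusted p of 0.0370 by the quasi-binomial model, where 0.000949% of all tested cytosines passed (6 of 632335). In the lower direction chr1:235207644, a locus of 1 cytosine, had 3.799%, 6.82% and 11.1% in the L-DOPA group and 7.74%, 17.8% and 20.2% in the unlesioned group, a difference of -7.88 ± 2.42 points (SE; quasi-binomial adjusted p = 0.463), and the groups overlapped. With the read ratio as a term 10 cytosines passed, where 0.0253% of all tested cytosines passed (160 of 632335), among them chr1:13497219 with an adjusted p of 0.0331 and chr1:235207644 with an adjusted p of 0.0139, by the quasi-binomial model.

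Coverage at the excess-coverage cytosines was alike in the 2 lesioned groups within the spread between libraries. The median relative coverage of a library over the 5814 cytosines had a lowest, median and highest value of 7.11, 10.7 and 12.3 in the L-DOPA group, 8.397, 10.2 and 11.5 in the lesioned saline group and 10.1, 11.5 and 13.6 in the unlesioned group. The ranges of all 3 groups overlapped. The excess-coverage cytosines took 10.1% ± 0.899 of all coverage in the L-DOPA group, 9.57% ± 0.587 in the lesioned saline group and 9.69% ± 0.885 in the unlesioned group. Those of 5000 reads or more alone took 6.21% ± 0.707, 5.78% ± 0.527 and 5.83% ± 0.878 in the same order. The unlesioned libraries chose the cytosines, so their coverage is given as a description.

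By edgeR's quasi-likelihood test on coverage, L-DOPA against lesioned saline, 0 of 5814 cytosines passed an adjusted p of 0.05, where 0% of 945988 tested cytosines passed, and DESeq2 passed 0. At an unadjusted p under 0.05 edgeR had 167 (2.87%), 139 higher and 28 lower, against 3.5% of all tested, 2.48% higher and 1.02% lower. The median log2 fold change of coverage was 0.04 over the 5814 cytosines and 0.02 over all tested. Over the 458 deepest it was 0.11, with 397 higher and a smallest unadjusted p of 0.109 by edgeR. In the chromosome 1 region, chr1:13510209 had a relative coverage with a lowest, median and highest library of 26.0, 49.1 and 66.9 in the L-DOPA group and 6.79, 25.2 and 45.9 in the lesioned saline group, a log2 fold change of 0.95 (edgeR adjusted p = 1). In the lower direction chr6:62771957 had 11.3, 15.5 and 20.2 in the L-DOPA group and 13.7, 24.9 and 31.1 in the lesioned saline group, a log2 fold change of -0.67 (edgeR adjusted p = 1). At both cytosines the groups overlapped.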

How the data were processed

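Bisulfite sequencing of DNA from rat dorsal striatum was deposited as 1 table per library, listing CpG cytosines by strand with at least 10 reads. Each table gives the authors' coverage, a count of reads, and the authors' percent of reads with C and with T. Methylated counts were rebuilt from percent and coverage and rounded to whole reads. Under 1000 reads, where the rounding of the percent allows at most 0.05 of a read, they were whole in 100% of values in each library. At the deepest cytosines that rounding can move a rebuilt count by a few reads. Per the submitters' processing notes, Bismark 0.13.0, Trim Galore 0.3.7, SAMtools 0.1.19, FastQC 0.10.1 and methylKit 0.9.2 were used with rn5. Per the labels' protocols, reads were single-end of 50 bases.

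The members, lists and tests were chosen with earlier results of these data known. Named were the 10 loci of highest peak coverage and the 5 with most cytosines. Among loci of 3 or more cytosines, 3 each of highest, lowest and nearest to 50% methylation were named. So were the 3 of largest SD between unlesioned libraries among the same loci. For each comparison and direction, the 5 cytosines of smallest p were named where fewer than 3 passed. Methylated and unmethylated counts of each cytosine were fitted with a quasi-binomial logistic model whose dispersion was moderated across cytosines, in Python 3.11.15, with Benjamini-Hochberg adjustment over 632335 cytosines of pooled methylation from 1% to 99%. The moderation lowers very large dispersions, so p-values of such cytosines can be too small. Coverage was tested with edgeR 4.0.16, with DESeq2 1.42.0 as an alternative, and limma 3.58.1 was an alternative for methylation. On simulated data of 100000 cytosines the methylation test of L-DOPA against lesioned saline found 11.9% of differences of 10 points and 65.9% of 20 points, and the coverage test of that comparison found 93.9% of 2-fold changes. Both simulations drew on cytosines of the whole series with a fixed spread, so these shares do not describe the excess-coverage cytosines. Library series come from numbers in the names of the deposited tables. Reads without molecular identifiers are not independent molecules, so counting error is a lower limit. Cytosines of chromosome X and the mitochondrial genome were left out.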

Additional observations from a re-analysis of the deposited data

Results flagged for a closer look

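Of 234 sets of one group's values, 15 had a sample whose distance from its nearest neighbour passed Dixon's limit, where chance gives 1 in 20, or 11.7. At chr13:116128969 methylation was 93.5% in lesioned saline replicate 8 and 94.1% in unlesioned replicate 6, both above the rest of their group, and these 2 libraries also had the lowest relative coverage there. At chr1:268542743, a locus near 0%, L-DOPA replicate 2 had 2.44%, lesioned saline replicate 5 had 1.65% and unlesioned replicate 3 had 1.67%. Lesioned saline replicate 5 and unlesioned replicate 3 are one of the 5 pairs of most alike libraries, as are the 2 libraries at chr13:116128969.

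Among other loci, chr19:67048278 had 12.4% in L-DOPA replicate 4 and chr2:211291983 had 93.5% in lesioned saline replicate 2, each the lowest of its group. The relative coverage of chr16:54129843 was 433.1 in unlesioned replicate 4, the highest of its group. Among cytosines, chr13:94071441 had 0.870% in lesioned saline replicate 5, chr6:39271337 had 36.1% in unlesioned replicate 5 and chr1:235207644 had 21.6% in lesioned saline replicate 6. The relative coverage of chr4:29302015 was 6.29 in lesioned saline replicate 6 and 34 in unlesioned replicate 4. Over whole libraries, the median relative coverage of the excess-coverage cytosines was 7.11 in L-DOPA replicate 1, and the mean methylation of the comparators was 32.9% in unlesioned replicate 1, one of the 3 libraries with concentrated reads.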

How the results depend on the processing

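A threshold of 400 reads gave 10926 cytosines in 4208 loci, one of 1000 reads gave 1336 in 252 loci, and the rule without unlesioned replicate 1 gave 6063 in 2356 loci. The difference from the comparators was reversed with comparators of 20 to 200 reads (1.88, 1.48 and 1.43 points in the L-DOPA, lesioned saline and unlesioned groups) and averaged over loci (6.26, 6.22 and 6.15 points), and moved to -10.4, -12.2 and -12.4 points at 1000 reads or more. Leaving out 1 library gave -4.36 to -4.15, -4.95 to -4.65 and -5.11 to -4.59 points in those groups. The cause of these changes was not tested.

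Without overdispersion, at an adjusted p under 0.01 and 5 points, 230, 68 and 298 excess-coverage cytosines passed for L-DOPA against lesioned saline, lesioned saline against unlesioned and L-DOPA against unlesioned (9626, 6385 and 23149 of all tested). That model takes counting error as the only error. With the read ratio as a term 1 passed for L-DOPA against lesioned saline (6 of all tested) and 10 for L-DOPA against unlesioned (160 of all tested), and without the 3 libraries with concentrated reads 2 passed for L-DOPA against lesioned saline (3 of all tested). Leaving out 1 library gave 0 to 0, 0 to 0 and 0 to 1 calls for methylation and 0 to 0 for coverage. The ratio of median relative coverage ran from 1.00 to 1.09 for L-DOPA against lesioned saline, 0.866 to 0.920 for lesioned saline against unlesioned and 0.888 to 0.964 for L-DOPA against unlesioned when 1 library was left out. Of 360 values of named cytosines under other settings 340 stayed on their side of the threshold and 20 passed it. Although 0 changed direction, the difference is that of plain group means. It can change only with limma or where libraries are left out, so the other settings could not have turned its direction.

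Loci with r over 0.8 with the largest locus numbered 51 in series 1 (8 shared with the 10), 17 in series 2 (10 shared), 12 by Spearman's rho (10 shared), 10 without the 3 libraries (10 shared) and 10 to 11 with 1 library left out. These settings, own dispersions and the rule without unlesioned replicate 1 were chosen after seeing the data. Same-numbered libraries did not deviate together (r from -0.101 to 0.0733 over 19 pairs, and 4 of 20 libraries correlated best with their own number). With the replicate block 0 excess-coverage cytosines passed in each of the 3 methylation comparisons and 0 in coverage, against 23, 10 and 31 over all tested cytosines for methylation. In the class of 5% to 20% methylation, counting error alone would give an SD of 0.282 points at 5000 reads or more and 3.89 points at the comparators, which is a lower limit.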
